A study of Homo sapiens with 72 samples.

Results

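The 5 long non-coding RNA (lncRNA) genes described here are NONHSAG063202.2, NONHSAG013109.2, NONHSAG030661.2, NONHSAG011413.2 and NONHSAG112719.1. They are 5 of the 96411 gene rows of the deposited table and carry identifiers of NONCODE, a database of non-coding RNA genes. They were selected on measured values of this table: their levels rose with transforming growth factor β (TGF-β) in every cell line, with the greatest change in log2(TPM + 0.5) in the Ras-transformed line. The rise with TGF-β is therefore given as a description, without a p-value. Counts of genes called in TGF-β comparisons are printed beside the share of all genes called, and nothing is read from them, since the choice could fix them. The p-values are kept to the other drug arm, though the choice may have drawn on that arm as well. The identifiers were not paired with a gene name, a position or a sequence in the sources used here, so the genes are called by identifier.

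Total RNA came from 3 established lines of human breast cells. Of these, MCF10A-M1 (M1) is labelled as MCF10A, a non-malignant breast epithelial line, and MCF10A-M2 (M2) as MCF10A transformed with HA-Ras. MDA-MB-231 is labelled as a triple-negative breast cancer line. All cells spent a night without serum. They then received either TGF-β at 5 ng/mL or SB431542 (SB), a receptor kinase inhibitor, at 10 µM. Each arm was sampled at 0, 2, 8 and 24 h with 3 libraries per group, which the design text calls biological triplicates, giving 72 libraries in 24 groups. The 0 h libraries of the TGF-β arm are labelled as non-stimulated. The first SB libraries are titled 0 h, but their treatment label reads 0.5 h, so they are called the earliest SB samples. Vehicle was named as a control in the protocol, but no group carries a vehicle label at 2, 8 or 24 h. A change over 24 h thus has no untreated sample of the same time beside it, and some of the rises below were seen in both arms.

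TGF-β binds a pair of receptor kinases at the cell surface, the type II and type I receptors, and the type I receptor phosphorylates SMAD proteins that enter the nucleus and regulate transcription. In breast epithelial cells the pathway is known for arresting growth and, together with Ras signalling, for epithelial to mesenchymal transition. SB431542 blocks the kinase of the TGF-β type I receptor and of its closest relatives, and so lowers signalling from ligand that the cells or the medium supply. LncRNAs are transcripts without a long open reading frame. Some act on the chromatin or the proteins around them, and for many no role is known.

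Levels are TPM as deposited, transcript abundances scaled for transcript length and to a fixed total, in this table over lncRNA genes alone. TPM keeps no record of sequencing depth, so the depth behind each value is unknown and no counting interval is given. A value of 0 is called listed at 0. Libraries held between 8458 and 16748 genes at 0.5 TPM or more (median 13174), and their 10 most abundant genes took 56.7 to 78.8% of the total. In M2 the number of such genes was 13571 ± 910 at 0 h and 9080 ± 921 after 24 h of TGF-β, and 13123 ± 1024 in the earliest SB samples and 9310 ± 42.9 after 24 h of SB (SD, n = 3). Because TPM is a share of a fixed total, several comparisons are also given after median-of-ratios rescaling, which sets each library to the median of its gene ratios. Over all genes tested, the median log2 change at 24 h in M2 was −0.74 with TGF-β and −0.63 with SB as deposited, and −0.15 and −0.11 after rescaling. How much of any M2 difference came from this shift was not tested. Every log2 difference below is on the log2(TPM + 0.5) scale, which understates changes of genes near 0 TPM.

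The 5 genes lay at very different levels. NONHSAG030661.2 was the most abundant in M1 and M2, where its mean ran from 7.34 to 779 TPM over the groups. Its rank among all gene rows by mean TPM in M2 went from 544 at 0 h to 60 after 24 h of TGF-β. NONHSAG063202.2 was the least abundant in M1 at 0 h, at 0.381 ± 0.289 TPM (SD, n = 3). NONHSAG112719.1 was close to 0 TPM in MDA-MB-231, where it was listed at 0 in all 3 libraries at 2 h of SB. All 5 passed the low-value filter (0.5 TPM in 3 libraries) in every line. None of the 6 starting libraries reached 0.5 TPM for NONHSAG112719.1 in MDA-MB-231 or for NONHSAG063202.2 in M2 and MDA-MB-231, and 1 of 6 did for NONHSAG063202.2 in M1. In those cases the filter was passed through treated libraries, where the level was higher.

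NONHSAG063202.2 started below 1 TPM in every line. In M2 it was 0.113, 0.243 and 0.162 TPM at 0 h in replicates 1, 2 and 3, the order kept below. It was 0.992, 0.781 and 0.621 TPM at 2 h of TGF-β. It then reached 4.56, 2.99 and 5.91 TPM at 8 h and 4.76, 4.58 and 10.3 TPM at 24 h. Every M2 library at 2, 8 and 24 h was above every 0 h library, and replicate 3 was the high one at 24 h. The ratio of the 24 h mean to the 0 h mean was 38.0, and the log2 change was 3.30 (SE 0.32). In M1 it went from 0.187, 0.244 and 0.713 TPM at 0 h to 2.58, 0.959 and 4.33 TPM at 24 h, a log2 change of 1.71 (SE 0.39). In MDA-MB-231 it went from 0.361, 0.238 and 0.271 TPM to 1.71, 2.14 and 2.41 TPM, also a log2 change of 1.71 (SE 0.30). The 24 h libraries lay above the 0 h libraries in both of these lines as well, with a wide spread in M1.

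NONHSAG013109.2 showed a low start in M2 and a high one in M1. In M2 it was 1.42, 2.07 and 1.83 TPM at 0 h, and 4.04, 4.52 and 3.19 TPM at 2 h of TGF-β. It went on to 7.53, 9.34 and 9.68 TPM at 8 h and 25.9, 21.8 and 28.6 TPM at 24 h. No library of a later time overlapped an earlier one. The ratio of 24 h to 0 h means was 14.4, and the log2 change was 3.51 (SE 0.23). In M1 it rose from 13.8, 14.4 and 11.9 TPM at 0 h to 31.6, 31.7 and 32.7 TPM at 8 h and stood at 30.4, 28.1 and 37.0 TPM at 24 h, a log2 change of 1.22 (SE 0.19) at 24 h. The M1 values at 8 and 24 h overlapped, so the M1 course was level after 8 h within the spread of the libraries. In MDA-MB-231 it went from 3.65, 3.36 and 2.71 TPM to 8.47, 6.12 and 9.61 TPM at 8 h and 9.48, 9.22 and 10.6 TPM at 24 h, a log2 change of 1.46 (SE 0.28) at 24 h. Although its fold was greatest in M2, its highest group mean was that of M1 at 8 h (32.0 TPM), next to M1 at 24 h (31.8 TPM) and M2 at 24 h (25.5 TPM).

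NONHSAG030661.2 was already abundant in M2 before treatment. It measured 98.3, 85.7 and 126 TPM there at 0 h, and 242, 198 and 223 TPM at 2 h of TGF-β. It then measured 336, 407 and 463 TPM at 8 h, and 739, 748 and 850 TPM at 24 h. Each time stood wholly above the one before it, and the M2 24 h libraries were above every library of every other group. The ratio of 24 h to 0 h means was 7.54, and the log2 change was 2.92 (SE 0.20). In M1 it went from 59.0, 59.7 and 64.2 TPM at 0 h to 188, 196 and 199 TPM at 8 h and 199, 185 and 245 TPM at 24 h, with a log2 change of 1.76 (SE 0.15) at 24 h. In MDA-MB-231 it stayed lower, going from 11.2, 9.46 and 6.30 TPM at 0 h to 21.8, 16.3 and 22.0 TPM at 24 h, a log2 change of 1.14 (SE 0.27). The 24 h libraries were above the 0 h libraries in every line.

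NONHSAG011413.2 was barely detected in untreated M2 cells. It was listed at 0 in replicates 1 and 2 and at 0.533 TPM in replicate 3 at 0 h, and measured 0.562, 0.393 and 0.264 TPM at 2 h of TGF-β. At 8 h it was 0.395, 1.19 and 0.890 TPM, and at 24 h 4.05, 3.70 and 2.91 TPM. In M2 the 24 h libraries alone stood clear of the 0 h libraries. Its M2 log2 change of 2.66 (SE 0.45) at 24 h became 4.29 with a pseudocount of 0.1, as 2 starting libraries were listed at 0. In M1 it went from 2.23, 3.23 and 4.10 TPM to 9.05, 8.83 and 10.5 TPM at 24 h, a log2 change of 1.46 (SE 0.29). In MDA-MB-231 the 0 h libraries were spread, at 16.1, 8.46 and 4.88 TPM, and the 24 h libraries held 22.0, 17.1 and 21.5 TPM. That log2 change of 1.15 (SE 0.31) was 0.76 without 0 h replicate 3, the lowest of them. The highest group mean of NONHSAG011413.2 was in MDA-MB-231 at 24 h of TGF-β (20.2 TPM), not in M2 (3.55 TPM).

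NONHSAG112719.1 rose late in M2. It was 4.20, 5.93 and 5.11 TPM at 0 h, and 6.50, 3.53 and 3.66 TPM at 2 h of TGF-β. It was 6.39, 11.4 and 12.4 TPM at 8 h and 27.5, 23.3 and 23.8 TPM at 24 h. The 2 h libraries overlapped those at 0 h, and the 24 h libraries were above every other library of the table for this gene. Its log2 change at 24 h was 2.19 (SE 0.31) in M2, with a ratio of means of 4.89. In M1 it went from 3.53, 3.80 and 1.75 TPM at 0 h to 13.5, 10.2 and 10.6 TPM at 8 h and 13.6, 8.80 and 10.5 TPM at 24 h, a log2 change of 1.74 (SE 0.26) at 24 h. In MDA-MB-231 it went from 0.135, 0.206 and 0 TPM to 0.465, 0.923 and 1.53 TPM at 24 h. That log2 change of 1.21 (SE 0.30) was 2.34 with a pseudocount of 0.1 and 0.79 with a pseudocount of 1, since the values are close to 0.

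**Figure D1:**
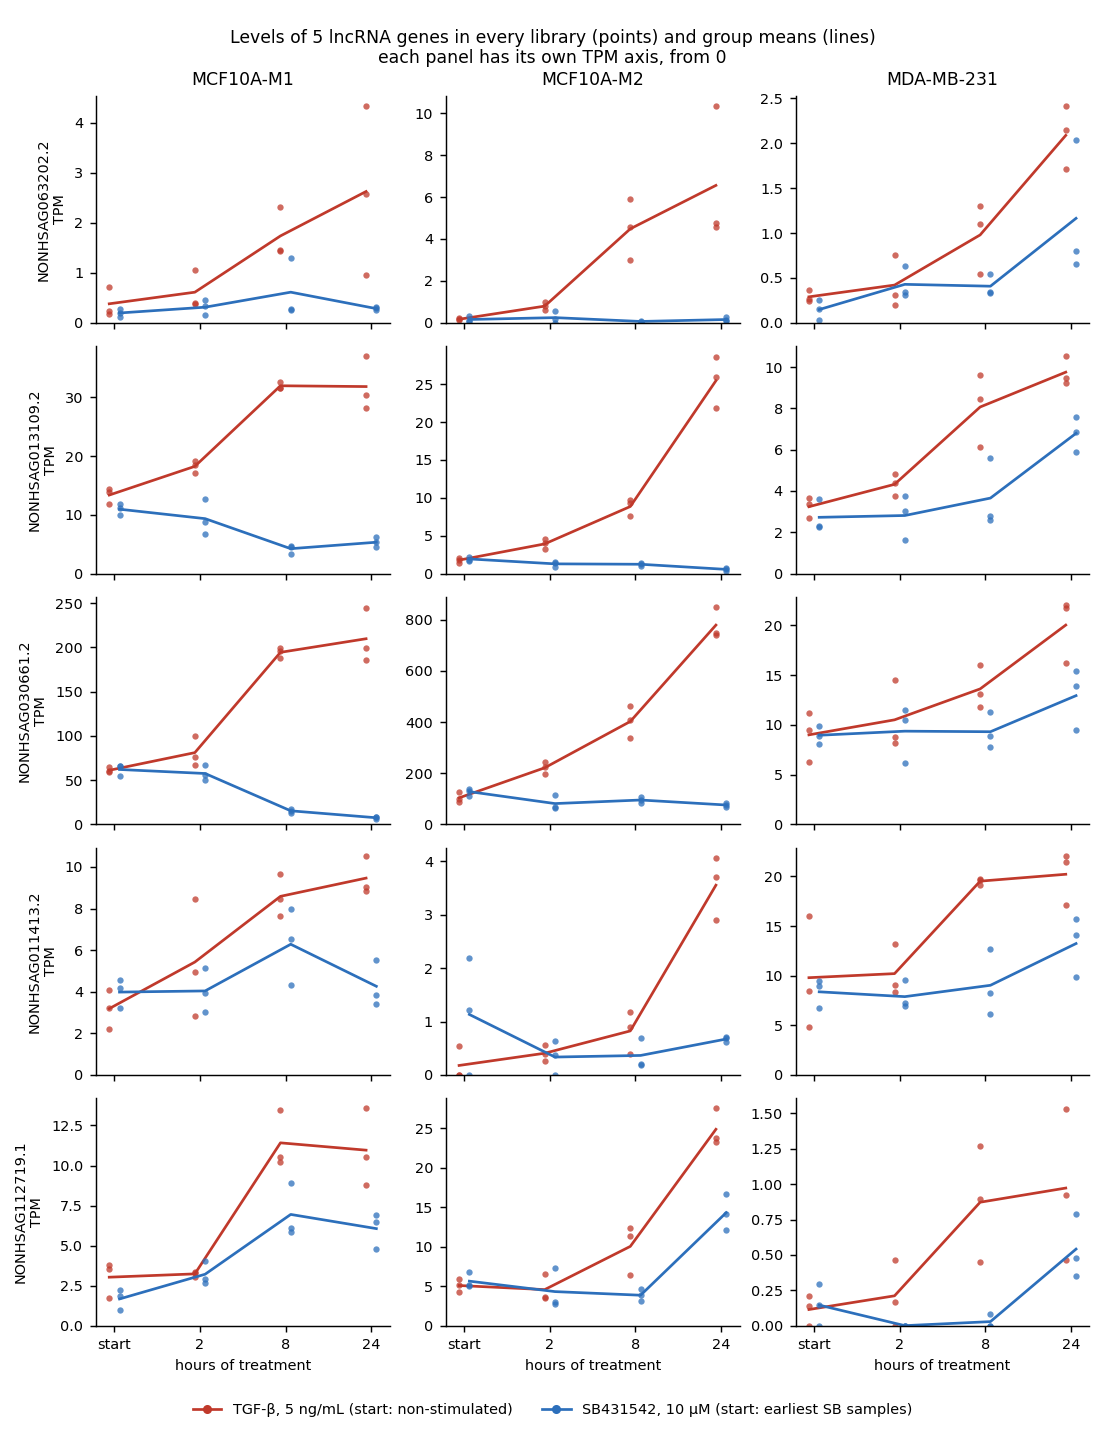
TPM of each gene (rows) in each line (columns) against hours of treatment, with 1 point per library, lines through the means of 3 libraries, TGF-β in red and SB in blue; each panel has its own axis from 0. In M2 the TGF-β points of NONHSAG030661.2 climb to between 739 and 850 TPM at 24 h while its SB points at 24 h stay between 67.5 and 82.9 TPM.

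The limma call used throughout is a Benjamini-Hochberg adjusted p under 0.05 over all genes tested in the fit. By it all 5 genes were higher at 24 h of TGF-β in each line, an outcome fixed by their choice and no support for it. As background, 2.6% of all genes tested were called higher in M1, 4.21% in M2 and 1.23% in the MDA-MB-231 fit. They belong to 31 genes called higher in all 3 lines among 13631 genes tested in every line. Of those 31 genes, 14 had their greatest log2 change in M2, 12 in MDA-MB-231 and 5 in M1. The log2(TPM + 0.5) change was greatest in M2 for all 5 genes, both as deposited and after rescaling, where the M2 values were 4.10 for NONHSAG063202.2, 4.53 for NONHSAG013109.2, 4.04 for NONHSAG030661.2, 3.45 for NONHSAG011413.2 and 3.26 for NONHSAG112719.1.

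The earlier hours were counted in the same way, and a difference in timing between lines was not tested. At 8 h, 5 of 5 genes were called higher in M1 (background 5.28%), 3 in M2 (2.65%) and 1, NONHSAG013109.2, in MDA-MB-231 (0.586%). The 3 in M2 were NONHSAG063202.2, NONHSAG013109.2 and NONHSAG030661.2, with log2 changes of 2.85, 2.04 and 1.96. After rescaling 4 genes were called at 8 h in M2 (background 5.26%) and 4 in MDA-MB-231 (1.9%), so the lower count in MDA-MB-231 depended on the scaling. In MDA-MB-231 every 8 h library was above every 0 h library for all 5 genes, with log2 changes from 0.60 to 1.18. The share of all genes that stand apart in this way was not computed, and the choice of the genes could fix this count. At 2 h, NONHSAG030661.2 in M2 was the single call, with a log2 change of 1.11 (SE 0.20). NONHSAG013109.2 was a second one there after rescaling (0.92, background 0.979%). None of the 5 was called at 2 h in M1 or MDA-MB-231, where 2 and 0 of the genes passed an unadjusted p under 0.05 in limma. The share of all genes called higher at 2 h was 0.502% in M1, 0.478% in M2 and 0.369% for MDA-MB-231.

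The 24 h TGF-β change was set against that of the other lines. NONHSAG013109.2 changed more in M2 than in M1 by a log2 difference of 2.30 (SE 0.28), NONHSAG063202.2 by 1.59 (SE 0.50) and NONHSAG030661.2 by 1.16 (SE 0.25). Those 3 were called (background 2.04%). NONHSAG011413.2 had a difference of 1.20 (SE 0.56), which was 2.71 with a pseudocount of 0.1 and 0.63 with one of 1, and NONHSAG112719.1 one of 0.46 (SE 0.41). After rescaling all 5 were called, with a background of 9.38% and differences from 1.32 to 3.10. Against MDA-MB-231 the same 3 genes were called (background 3.18%), with log2 differences of 2.05 (SE 0.34) for NONHSAG013109.2, 1.79 (SE 0.33) for NONHSAG030661.2 and 1.60 (SE 0.42) for NONHSAG063202.2. NONHSAG011413.2 had 1.51 (SE 0.56), or 3.10 and 0.87 with those pseudocounts, and NONHSAG112719.1 had 0.98 (SE 0.43). All 5 were called after rescaling (background 10.8%). For NONHSAG112719.1 the M2 against MDA-MB-231 difference was −0.06 with a pseudocount of 0.1, so its order between these lines rests on how values near 0 are treated. These comparisons were part of the choice of the genes, and their counts are a description.

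**Figure D2:**
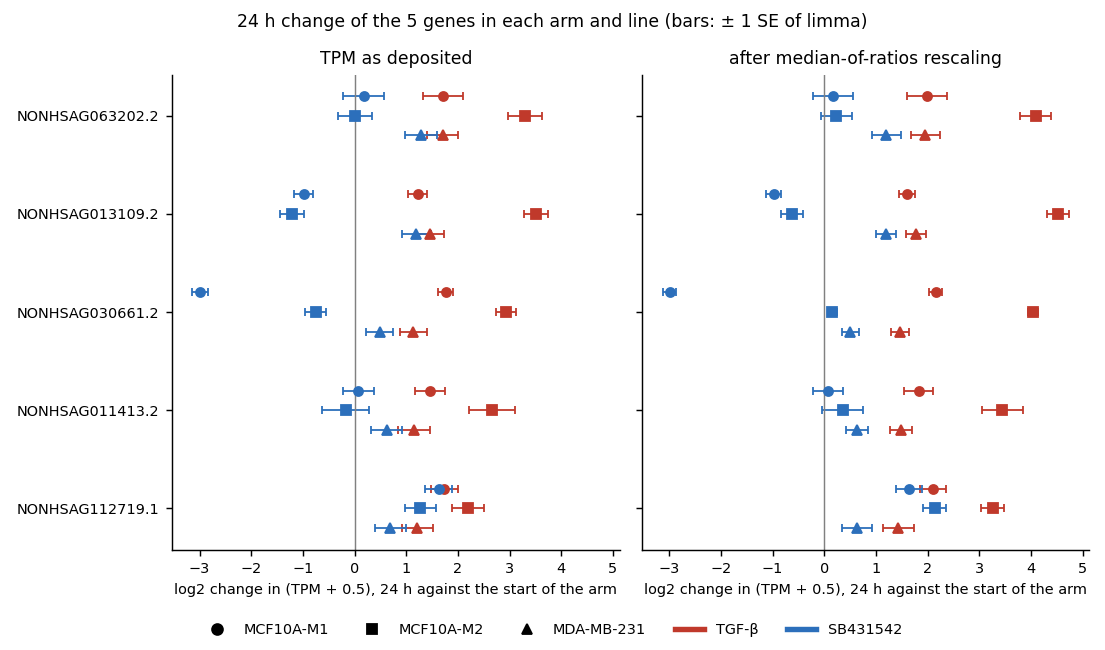
Log2 change of (TPM + 0.5) from the start of each arm to 24 h, with bars of 1 SE from limma, for TPM as deposited (left) and after median-of-ratios rescaling (right); marker shape gives the line, red is TGF-β and blue is SB. The red squares of M2 lie between 2.19 and 3.51 as deposited, to the right of the other lines for each gene, while the blue markers fall on both sides of 0.

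A change within the SB arm is not named among the reasons the genes were chosen, and it separated them. The genes were listed over the groups of both arms, however, so the choice may have drawn on SB libraries. The p-values of this arm may therefore not be independent of the choice. In M1 NONHSAG030661.2 fell under the inhibitor to 0.119 of its starting mean, NONHSAG013109.2 fell, NONHSAG112719.1 rose, and the other 2 did not pass the test. NONHSAG030661.2 held 54.8, 65.4 and 65.6 TPM at the earliest SB time in M1, 15.3, 12.7 and 17.5 TPM at 8 h, and 7.81, 7.75 and 6.47 TPM at 24 h. The later libraries were all below the starting ones. Its log2 change was −2.0 (SE 0.15, limma adjusted p 8.16e-09) at 8 h and −2.99 (SE 0.15, limma adjusted p 3.76e-12) at 24 h. NONHSAG013109.2 held 11.8, 9.95 and 11.1 TPM in the earliest samples, 3.33, 4.77 and 4.60 TPM at 8 h and 6.22, 4.45 and 5.34 TPM at 24 h. It lay below its starting libraries at both times, with log2 changes of −1.29 (SE 0.19, limma adjusted p 0.000173) and −0.98 (SE 0.19, limma adjusted p 0.00175).

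NONHSAG112719.1 went the other way in M1, where SB and TGF-β libraries both rose. It held 0.976, 2.2 and 1.82 TPM in the earliest SB samples, 5.86, 8.88 and 6.09 TPM at 8 h, and 6.93, 4.77 and 6.47 TPM at 24 h. Its later SB libraries were all above the starting ones. The log2 change was 1.80 (SE 0.26, limma adjusted p 0.000207) at 8 h and 1.63 (SE 0.26, limma adjusted p 0.000369) at 24 h. The ratio of its 24 h mean to the start of the arm was 3.64 with SB and 3.62 with TGF-β. At 24 h in M1 the log2 change of NONHSAG063202.2 was 0.17 (SE 0.39, limma adjusted p 0.883) and that of NONHSAG011413.2 was 0.07 (SE 0.29, limma adjusted p 0.941). The M1 count was thus 3 of 5 at 8 h (background 3.68%) and 3 of 5 at 24 h (background 5.25%).

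In M2 the direction of the called genes was the same at 24 h, 2 lower and 1 higher, against a high background of 37.2% called. NONHSAG013109.2 was 1.84, 1.71 and 2.23 TPM in the earliest SB samples and 0.680, 0.624 and 0.349 TPM at 24 h, all below the start. Its log2 change was −1.22 (SE 0.23, limma adjusted p 0.000358), and −0.62 after rescaling (limma adjusted p 0.0385). It did not pass after quantile normalization (−0.43, limma adjusted p 0.175) or when TPM was rescaled without its 10 most abundant genes (−0.78, limma adjusted p 0.0655). NONHSAG030661.2 went from 112, 131 and 140 TPM to 75.5, 82.9 and 67.5 TPM, again without overlap. Its log2 change of −0.76 (SE 0.20, limma adjusted p 0.00484) turned to 0.16 after rescaling (limma adjusted p 0.252). It was −0.21 after quantile normalization (limma adjusted p 0.104) and −0.11 without the 10 most abundant genes (limma adjusted p 0.856). The fall of NONHSAG030661.2 in M2 therefore depended on the scaling, and over all genes tested the median change was of similar size (−0.63) as deposited.

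NONHSAG112719.1 rose in M2 under SB as well. It held 4.98, 5.08 and 6.84 TPM in the earliest samples, 3.08, 3.89 and 4.58 TPM at 8 h, and 16.6, 14.1 and 12.2 TPM at 24 h. The 24 h libraries were all above the start and the 8 h libraries all below it. The log2 change at 24 h was 1.27 (SE 0.31, limma adjusted p 0.00262), and 2.14 after rescaling (limma adjusted p 2.63e-07). NONHSAG063202.2 (0.01, SE 0.32, limma adjusted p 0.995) and NONHSAG011413.2 (−0.17, SE 0.45, limma adjusted p 0.786) did not pass the test. After rescaling the M2 count was 1 higher and 1 lower, with a background of 20.6%.

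In MDA-MB-231 both called genes rose under the inhibitor. NONHSAG063202.2 was 0.0299, 0.255 and 0.160 TPM in the earliest SB samples and 0.799, 2.04 and 0.658 TPM at 24 h. Its log2 change was 1.28 (SE 0.30, limma adjusted p 0.0264), for a gene that entered the fit through its treated libraries. NONHSAG013109.2 was 2.27, 3.60 and 2.30 TPM and then 7.61, 6.87 and 5.89 TPM, a log2 change of 1.20 (SE 0.28, limma adjusted p 0.0236). The 24 h libraries of both genes lay above their starting libraries, and the background was 1.9%. For NONHSAG063202.2 the ratio of the 24 h mean to the start of the arm was 7.86 with SB and 7.20 with TGF-β. For NONHSAG013109.2 that ratio was 2.49 with SB and 3.01 with TGF-β. With 1 library left out, NONHSAG013109.2 missed the threshold without starting replicate 1 or 3 or 24 h replicate 1 or 2 (limma adjusted p 0.103, 0.103, 0.105 and 0.0969). NONHSAG063202.2 missed it when starting replicate 1, 2 or 3 was left out (limma adjusted p 0.121, 0.0554 and 0.0818), and also when replicate 1 or 2 of 24 h was left out (limma adjusted p 0.0549 and 0.183).

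The other 3 genes also had positive values in MDA-MB-231 under SB, below the threshold. NONHSAG030661.2 changed by 0.48 (SE 0.27, limma adjusted p 0.402), NONHSAG011413.2 by 0.62 (SE 0.31, limma adjusted p 0.339) and NONHSAG112719.1 by 0.69 (SE 0.30, limma adjusted p 0.268). The 24 h libraries of NONHSAG011413.2 (15.7, 14.1 and 9.90 TPM against 6.74, 8.96 and 9.43 TPM at the start) did not overlap. Those of NONHSAG112719.1 (0.792, 0.478 and 0.354 TPM against 0, 0.293 and 0.142 TPM) did not overlap either. Those of NONHSAG030661.2 (13.9, 15.4 and 9.46 TPM against 8.02, 8.92 and 9.90 TPM) did.

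Early in the SB arm few changes passed. At 2 h none of the 5 genes was called in any line by limma, where 1, 1 and 0 genes had an unadjusted p under 0.05 in M1, M2 and MDA-MB-231. The backgrounds were 0.0813%, 2.99% and 0%. At 8 h none was called in M2 (2 with an unadjusted p under 0.05, background 2%) or in MDA-MB-231 (0 with an unadjusted p under 0.05, background 0.242%). NONHSAG030661.2 in M2 was near the threshold at 2 h, at 114, 67.0 and 62.1 TPM against 112, 131 and 140 TPM. Its replicate 1 at 2 h stayed at the starting level and the other 2 libraries were lower. The log2 change was −0.70 (SE 0.20, limma adjusted p 0.0512), and −0.97 (limma adjusted p 0.000816) without that replicate. After rescaling it was −0.21 (limma adjusted p 0.459), and after quantile normalization −0.24 (limma adjusted p 0.329), while the median over all genes as deposited was −0.33. NONHSAG112719.1 was called as well without it, at −0.87 (limma adjusted p 0.0311), against −0.46 (SE 0.31, limma adjusted p 0.396) with all libraries and −0.02 after rescaling (limma adjusted p 0.99).

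The SB courses differed between lines for 3 of the genes. NONHSAG030661.2 fell further in M1 than in M2, by a difference of 2.24 (SE 0.25, limma adjusted p 1.94e-08), and was the single call of that comparison (background 19.3%). The difference was 3.19 after rescaling. Between MDA-MB-231 and M1, NONHSAG030661.2 differed by 3.48 (SE 0.31, limma adjusted p 1.17e-09) and NONHSAG013109.2 by 2.18 (SE 0.33, limma adjusted p 4.02e-05), both fallen in M1, with a background of 2.7%. NONHSAG013109.2 was also the clearest difference between M2 and MDA-MB-231, at −2.41 (SE 0.34, limma adjusted p 3.52e-06), having fallen in M2 and risen in MDA-MB-231 as deposited. The other 2 calls there (background 17%) were NONHSAG063202.2 at −1.28 (SE 0.42, limma adjusted p 0.0324) and NONHSAG030661.2 at −1.24 (SE 0.33, limma adjusted p 0.00826). Neither passed after rescaling, at −0.98 (limma adjusted p 0.123) and −0.35 (limma adjusted p 0.265). NONHSAG112719.1 then passed instead, at 1.51 (limma adjusted p 0.00443), so that 1 gene was higher and 1 lower with a background of 10.5%. The call of NONHSAG063202.2 was also lost without M2 starting replicate 3 (limma adjusted p 0.101), M2 24 h replicate 2 or 3 (0.0613 and 0.0717), MDA-MB-231 starting replicate 1 (0.0867) or 24 h replicate 2 (0.134). With no low-value filter its limma adjusted p was 0.0518. When TPM was rescaled without its 10 most abundant genes, that p was 0.119. NONHSAG011413.2, at −0.79 (SE 0.56, limma adjusted p 0.353), was called without M2 starting replicate 2, its library listed at 0, at −1.49 (limma adjusted p 0.0362).

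The arms were then set side by side at the same hour. These values include the TGF-β libraries and are again a description, the counts of calls included. At 24 h the TGF-β libraries were above the SB libraries for all 5 genes in M1 and in M2, and for 3 in MDA-MB-231. How many of all genes stand apart in this way was not counted, so nothing is read from these numbers. In M1 the log2 difference was 4.74 (SE 0.15) for NONHSAG030661.2, 2.47 (SE 0.19) for NONHSAG013109.2, 1.83 (SE 0.39) for NONHSAG063202.2, 1.09 (SE 0.29) for NONHSAG011413.2 and 0.80 (SE 0.26) for NONHSAG112719.1. In M2 it was 4.63 (SE 0.23) for NONHSAG013109.2, 3.36 (SE 0.20) for NONHSAG030661.2, 3.33 (SE 0.32) for NONHSAG063202.2, 1.78 (SE 0.45) for NONHSAG011413.2 and 0.78 (SE 0.31) for NONHSAG112719.1. So measured against SB, the widest gap of NONHSAG030661.2 was in M1, and NONHSAG112719.1 had nearly the same gap in M1 and M2. After rescaling the M2 differences ran from 1.07 for NONHSAG112719.1 to 5.13 for NONHSAG013109.2.

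In MDA-MB-231 the libraries of the arms lay closer together as deposited. The log2 differences at 24 h ran from 0.46 (SE 0.30) for NONHSAG112719.1 to 0.72 (SE 0.30) for NONHSAG063202.2. The SB library of NONHSAG063202.2 at 2.04 TPM lay within its TGF-β range of 1.71 to 2.41 TPM. Of the 5 genes, 5 were called higher with TGF-β than with SB at 24 h in M1 (background 4.18%), 4 in M2 (3.13%) and 0 in MDA-MB-231 (0.646%; 2 genes had an unadjusted p under 0.05 in limma). After rescaling the count was 5 in M2 (background 9.55%) and 4 in MDA-MB-231 (background 1.96%), the exception there being NONHSAG112719.1. The rescaled differences in MDA-MB-231 ran from 0.75 to 1.09 at 24 h. At 8 h TGF-β libraries of MDA-MB-231 were above the SB libraries for all 5 genes, again without a share of all genes beside it. The log2 differences ran from 0.53 to 1.34 as deposited and from 0.58 to 1.44 after rescaling. Between the non-stimulated and the earliest SB samples the differences ran from −1.05 (SE 0.45), for NONHSAG011413.2 in M2, to 0.69 (SE 0.26), for NONHSAG112719.1 in M1.

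**Figure D3:**
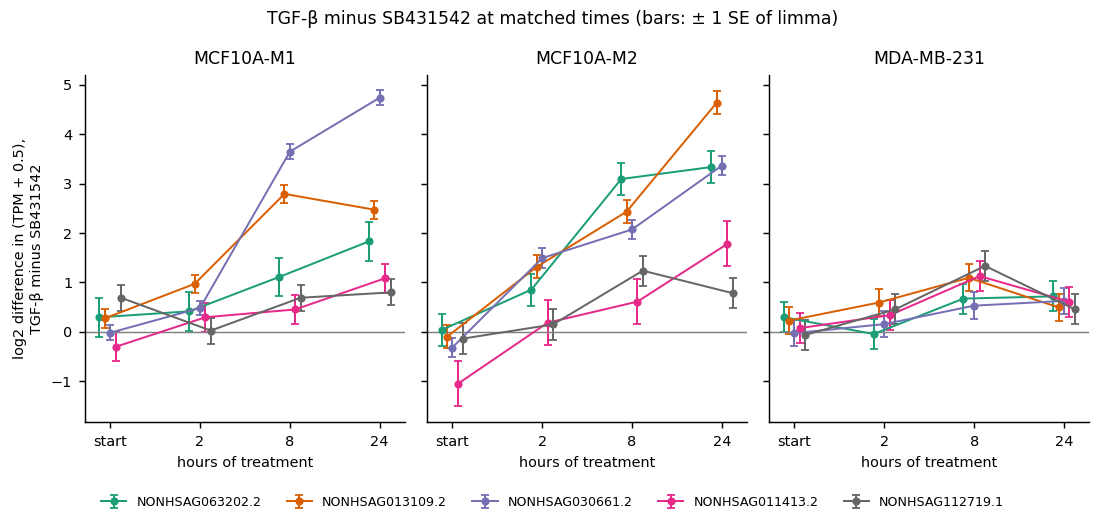
Log2 difference of (TPM + 0.5) between TGF-β and SB libraries at each hour in each line, 1 line per gene, with bars of 1 SE from limma. NONHSAG030661.2 reaches 4.74 at 24 h in M1 and NONHSAG013109.2 reaches 4.63 in M2, while in MDA-MB-231 all 5 genes lie between 0.46 and 0.72 at 24 h.

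The lines were compared with each other within the SB arm. In the earliest SB samples M2 differed from M1 in 4 of 5 genes, 2 higher and 2 lower (background 18.2%). NONHSAG013109.2 was lower in M2 (1.84, 1.71 and 2.23 TPM) than in M1 (11.8, 9.95 and 11.1 TPM), by −2.24 (SE 0.19, limma adjusted p 3.48e-11). NONHSAG030661.2 was higher in M2 by 1.04 (SE 0.17, limma adjusted p 4.26e-05), and NONHSAG112719.1 by 1.53 (SE 0.29, limma adjusted p 0.000205). NONHSAG011413.2 was lower in M2 (1.22, 0 and 2.18 TPM) than in M1 (4.54, 4.19 and 3.22 TPM), by −1.75 (SE 0.39, limma adjusted p 0.00168). Without the M2 library listed at 0, replicate 2, that difference was −1.05 (limma adjusted p 0.0528). NONHSAG063202.2 differed by −0.09 (SE 0.35, limma adjusted p 0.901).

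MDA-MB-231 differed from both MCF10A lines as well. Against M1, NONHSAG030661.2 was lower by −2.72 (SE 0.22, limma adjusted p 2.25e-13), NONHSAG013109.2 by −1.85 (SE 0.23, limma adjusted p 2.17e-08) and NONHSAG112719.1 by −1.73 (SE 0.28, limma adjusted p 4.48e-06). NONHSAG011413.2 was higher, by 0.98 (SE 0.31, limma adjusted p 0.00938), a call lost without M1 replicate 3 (0.85, limma adjusted p 0.0508). Against M2, NONHSAG011413.2 was higher by 2.74 (SE 0.40, limma adjusted p 4.60e-07), NONHSAG030661.2 lower by −3.76 (SE 0.23, limma adjusted p 1.07e-16) and NONHSAG112719.1 lower by −3.26 (SE 0.31, limma adjusted p 1.56e-11). These counts of 4 against M1 and 3 against M2 stand beside backgrounds of 41.1% and 36%, since the lines differ in a large share of all genes. NONHSAG013109.2 differed between MDA-MB-231 and M2 by 0.39 (SE 0.24, limma adjusted p 0.212), and by 0.55 after rescaling (limma adjusted p 0.0211).

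After 24 h of SB the order of the lines had changed for NONHSAG030661.2. It had been lower in MDA-MB-231 than in M1 and was then higher there, by 0.75 (SE 0.22, limma adjusted p 0.00440; 1.23 after rescaling). Its M2 against M1 difference was 3.27 (SE 0.17, limma adjusted p 8.56e-18), and MDA-MB-231 lay below M2 by −2.52 (SE 0.23, limma adjusted p 1.36e-11). NONHSAG013109.2 was lowest in M2, which differed from M1 by −2.48 (SE 0.19, limma adjusted p 5.60e-13; −1.64 after rescaling) and lay below MDA-MB-231, the latter higher by 2.80 (SE 0.24, limma adjusted p 1.31e-12). Between MDA-MB-231 and M1 it differed by 0.33 (SE 0.23, limma adjusted p 0.257), and by 0.79 after rescaling (limma adjusted p 0.00024).

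At the same 24 h of SB, NONHSAG011413.2 was highest in MDA-MB-231, by 1.53 (SE 0.31, limma adjusted p 8.67e-05) over M1 and 3.53 (SE 0.40, limma adjusted p 1.63e-09) over M2. Its M2 against M1 difference was −2.0 (SE 0.39, limma adjusted p 5.87e-05), −1.12 after rescaling (limma adjusted p 0.0189) and −0.71 after quantile normalization (limma adjusted p 0.195). NONHSAG112719.1 was lowest in MDA-MB-231, by −2.66 (SE 0.28, limma adjusted p 4.93e-10) against M1 and −3.84 (SE 0.31, limma adjusted p 1.64e-13) against M2, and was higher in M2 than in M1 by 1.18 (SE 0.29, limma adjusted p 0.000773; 2.36 after rescaling). NONHSAG063202.2 was higher in MDA-MB-231 than in M2 by 1.25 (SE 0.30, limma adjusted p 0.000841), a call lost after quantile normalization (0.73, limma adjusted p 0.0537). It was higher than in M1 by 0.99 (SE 0.34, limma adjusted p 0.0161), but by 0.65 without MDA-MB-231 replicate 2 (limma adjusted p 0.163). M2 and M1 differed in NONHSAG063202.2 by −0.26 (SE 0.35, limma adjusted p 0.555; 0.12 after rescaling). In all, 4 genes differed between M2 and M1 (background 54.5%), 4 between MDA-MB-231 and M1 (46.5%) and 5 between MDA-MB-231 and M2 (39.6%), shares of the 5 genes that sit beside very common differences over the table.

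Across all 24 groups the 5 genes did not share 1 profile. M2 at 24 h of TGF-β was the highest group for NONHSAG063202.2, NONHSAG030661.2 and NONHSAG112719.1, and for the latter 2 all its libraries were above those of every other group. The lowest group was M2 at 8 h of SB for NONHSAG063202.2 (0.0674 TPM), M2 at 24 h of SB for NONHSAG013109.2 (0.551 TPM), M1 at 24 h of SB for NONHSAG030661.2 (7.34 TPM), M2 at 0 h for NONHSAG011413.2 (0.178 TPM) and MDA-MB-231 at 2 h of SB for NONHSAG112719.1 (0 TPM). With the groups put in order of their means, neighbouring groups overlapped in 23 of 23 pairs for NONHSAG063202.2, 18 for NONHSAG013109.2, 17 for NONHSAG030661.2, 20 for NONHSAG011413.2 and 22 for NONHSAG112719.1. Most steps in these orders are therefore within the spread of 3 libraries. Neighbours in such an order have the closest means, so their overlap says little about groups further apart.

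Pearson's r between 2 of the genes over the 24 group means of log2(TPM + 0.5) ran from −0.57, between NONHSAG030661.2 and NONHSAG011413.2, to 0.804, between NONHSAG030661.2 and NONHSAG112719.1. NONHSAG011413.2 was highest in MDA-MB-231 where NONHSAG030661.2 was low. Within 1 line, over 8 groups, r was 0.861 to 0.979 in MDA-MB-231, 0.585 to 0.989 in M2 and 0.185 to 0.942 in M1. The lowest of these was between NONHSAG030661.2, which fell under SB in M1, and NONHSAG112719.1, which rose. All points of a line share its cells and the closed total of TPM, and no test was made.

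Among 10725 other genes of at least 1 TPM on average, NONHSAG026213.2 (r = 0.909) and NONHSAG037901.2 (r = 0.907) had group means most like the mean standardised profile of the 5 genes over the 24 groups. NONHSAG026213.2 was listed at 0.430, 0 and 0 TPM in M2 at 0 h and at 8.96, 8.70 and 12.2 TPM at 24 h of TGF-β. At 24 h of SB it held 0, 0.138 and 0.0649 TPM in M2. NONHSAG037901.2 held 15.6, 13.1 and 24.7 TPM in M2 at 0 h, 100.4, 94.1 and 88.5 TPM at 24 h of TGF-β, and 20.8, 20.8 and 19.3 TPM at 24 h of SB. At 24 h in M2 both were higher with TGF-β than with SB, without overlap between the arms, a likeness that follows from how they were picked. The M2 mean of NONHSAG037901.2 at 24 h of SB (20.3 TPM) was not below that of the non-stimulated 0 h samples (17.8 TPM). It was below that of the earliest SB samples (31.5 TPM), whose libraries held 37.8, 30.2 and 26.5 TPM, without overlap. At 24 h of TGF-β the mean of NONHSAG026213.2 was higher in M1 (12.4 TPM) than in M2 (9.97 TPM).

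**Figure D4:**
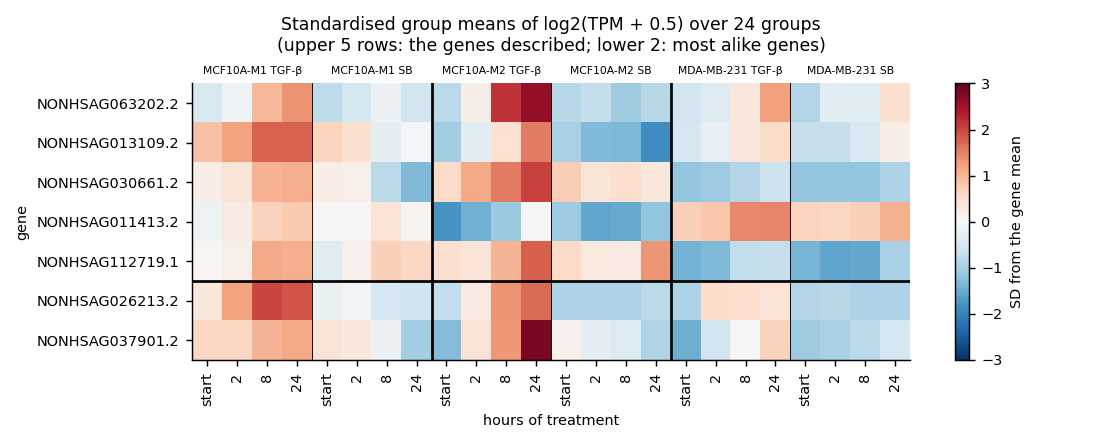
Group means of log2(TPM + 0.5) of each gene, standardised over the 24 groups (colour in SD from the gene's mean, red above and blue below), with lines, arms and hours along the x axis; the upper 5 rows are the genes described and the lower 2 the genes most like them (r = 0.909 and 0.907). The M2 TGF-β cells shift toward red by 24 h in every row, and NONHSAG011413.2 differs from the others by its low M2 and high MDA-MB-231 levels.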

How the data were processed

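Per the submitters' processing notes, FastQC, cutadapt 2.10, HISAT2 2.2.0 and StringTie 1.3.6 were used with build GRCh38, with settings not given in the sources used here. Values deposited by the authors are TPM of 96411 NONCODE lncRNA genes in 72 libraries. Columns were matched to samples by name, and no columns were identical. The genes, comparisons and tests were chosen with earlier results of these data known. Named genes are the 5 given, plus the 2 genes most like them by Pearson's r.

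From the TPM values, log2(TPM + 0.5) was fitted with limma 3.58.1 (R 4.3.3, trended eBayes) for genes that reached 0.5 TPM in 3 or more libraries. Each line was fitted alone (24 libraries), and pairs of lines together (48 libraries). Adjusted p-values are Benjamini-Hochberg over all genes tested, two-sided, with a threshold of 0.05. They rest on the spread between the 3 libraries of a group, estimated over all groups of the fit together. The procedure was tested on simulated data. Alternatives covered scaling, pseudocount, filter, groups fitted, replicate block and leaving out each library. The design text gives 36 samples, while 72 are listed.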

Additional observations from a re-analysis of the deposited data

Results flagged for a closer look

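For 3 of the genes the change from the earliest SB samples to 24 h of SB differed between lines by a limma test of the difference itself, with 3 libraries per group. For NONHSAG030661.2 it was 2.24 higher on the log2 scale in M2 than in M1 and 3.48 higher in MDA-MB-231 than in M1, the M1 level having fallen. Its difference between M2 and MDA-MB-231 was −1.24. For NONHSAG013109.2 the change was 2.18 higher in MDA-MB-231 than in M1, and the difference of M2 from MDA-MB-231 was −2.41. Its changes as deposited were −1.22 in M2 and 1.20 in MDA-MB-231, and each of them lost its call under some other settings. For NONHSAG063202.2, the M2 minus MDA-MB-231 difference was −1.28, with the M2 level near its start (0.01) and the MDA-MB-231 level higher (1.28). None of the 6 starting libraries of either line reached 0.5 TPM for this gene, so it entered the fit through treated libraries. The M2 minus MDA-MB-231 differences of NONHSAG030661.2 and NONHSAG063202.2 did not pass after rescaling (limma adjusted p 0.265 and 0.123), and the other 4 did. Of all genes tested, 19.3% were called in this test for M2 against M1 and 17% for M2 against MDA-MB-231. For MDA-MB-231 against M1 the share was 2.7%. A call between M2 and either other line was thus common over all genes. The choice of the genes may have drawn on SB libraries, so these tests may not be independent of it.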

How the results depend on the processing

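Over the SB tests 1409 alternative values of single genes were computed, of which 1305 kept their direction and side of the threshold. Of the others, 31 lost a call, 12 gained one, 60 changed sign with no call in either setting, and 1 reversed, a change of sign with a call. The reversed value was that of NONHSAG030661.2 at 24 h of SB in M2, 0.16 after median-of-ratios rescaling. Of 651 alternative values of the TGF-β description, 86 kept their sign but shifted by at least 1 residual SD of the gene in the fit. In this set 1 value changed sign, NONHSAG112719.1 between M2 and MDA-MB-231, −0.064 with a pseudocount of 0.1. The count of genes called over the SB course at 24 h in M2 went from 3 to 1 when TPM was rescaled without its 10 most abundant genes, and to 1 with quantile normalization. In MDA-MB-231 it went from 2 to 1 with a filter of a mean of at least 1 TPM, under which NONHSAG063202.2 was no longer tested. It went to 1 with only the compared groups fitted, and ranged from 0 to 2 when 1 library was left out. The count at 2 h and 8 h over all lines ranged from 3 to 5 when 1 library was left out. The count of SB courses that differed between M2 and MDA-MB-231 went from 3 to 1 under the same rescaling, and ranged from 2 to 4 when 1 library was left out. The cause of the other changes was not tested. Same-numbered starting and 24 h SB libraries deviated with correlations from −0.0425 to 0.0457, and 2 of 9 libraries correlated best with their own number, so the numbers were not taken as pairs. A fit with the replicate block left each count as it was (3, 3 and 2 genes at 24 h in M1, M2 and MDA-MB-231). Depth is unknown, and values near 0 TPM, those of NONHSAG112719.1 in MDA-MB-231 above all, depend on the pseudocount.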
